A study of Mus musculus with 8 samples.

Results

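The genes described here are 10 that are widely used to follow the epithelial-mesenchymal transition (EMT): the transcription factors Snai1, Snai2, Twist1, Twist2, Zeb1 and Zeb2, the cadherins Cdh1 (E-cadherin) and Cdh2 (N-cadherin), the tight junction protein Ocln (occludin) and the intermediate filament Vim (vimentin). They were taken by symbol, with every probe set that the platform annotation assigned to them and to no other gene, which gave 22 of 45101 probe sets and 10 of 18193 named genes. RNA came from mouse tumours of Lewis lung carcinoma (LLC), a lung line, grown for 4 weeks, and of colon26, a colon cancer line, grown for 2 weeks, each under the skin of mice. Both lines carried EGFP under the mouse promoter of PSF1, the replication protein encoded by Gins1, and dissociated tumours were sorted by FACS. The 4 groups, each with 2 arrays numbered 1 and 2, were LLC EGFP-high, LLC EGFP-low, colon26 EGFP-high and colon26 EGFP-low. The titles call the arrays of a group biological replicates but do not tie the numbers to separate tumours or mice, so p-values measure only the spread between these arrays. The labels used here name no mouse strain and do not say whether a line is a clone. The descriptions of the 4 colon26 arrays name LLC, whereas their titles, sources and cell line say colon26, which was followed. Line and weeks of growth cannot be told apart.

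In an epithelial sheet, E-cadherin joins neighbouring cells at adherens junctions and occludin lies in the tight junctions above them. Factors of the Snail, Zeb and Twist families lower epithelial genes such as Cdh1 during development and in carcinoma cells, and cells that have passed through the transition often carry N-cadherin in place of E-cadherin and abundant vimentin. Fibroblasts, endothelial cells and macrophages of a tumour express several of these genes as well.

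Occludin is the epithelial member whose level separated the lines, and Snail and Zeb proteins bind the E-box CAGGTG, read CACCTG on the other strand. For this reason its promoter windows are shown, with that motif in capitals. RefSeq (GRCm38.p6) lists 2 start sites for Ocln, and each window runs from 250 bases before to 50 bases after a start, on the minus strand, at chr13:100552669-100552968 and chr13:100552449-100552748.
Ocln window 1: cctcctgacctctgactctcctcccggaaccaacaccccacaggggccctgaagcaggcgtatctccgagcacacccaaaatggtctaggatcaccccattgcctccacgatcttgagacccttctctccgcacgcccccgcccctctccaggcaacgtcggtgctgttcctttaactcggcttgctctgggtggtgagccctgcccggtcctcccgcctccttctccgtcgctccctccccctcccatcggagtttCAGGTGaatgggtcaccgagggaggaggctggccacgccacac
Ocln window 2: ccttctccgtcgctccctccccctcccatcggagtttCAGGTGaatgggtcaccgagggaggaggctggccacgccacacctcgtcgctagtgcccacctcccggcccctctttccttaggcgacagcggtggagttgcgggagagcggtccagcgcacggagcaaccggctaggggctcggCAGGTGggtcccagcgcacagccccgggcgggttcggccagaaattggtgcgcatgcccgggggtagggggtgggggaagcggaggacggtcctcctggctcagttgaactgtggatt
The windows overlap, so the motif at base 258 of window 1 is the one at base 38 of window 2, and a further match begins at base 183 of window 2. The search covered both strands of 32817 windows of 300 bases, and 20.2% of them held this motif. Among the other members with a window, Snai1 had 1 match and Twist1, Twist2, Zeb2 and Vim had 0. Such a match is a description of letters and shows no binding.

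Signals are log2 values made by RMA, the authors' summary of each probe set. Each array had 10565 to 11869 named genes with a value over 5. Gins1 was higher in the EGFP-high arrays of both lines (change 1.28 in LLC and 1.07 in colon26, limma adjusted p = 0.0033 and 0.017). In every group the array numbered 1 stood apart from the array numbered 2: over 4 control transcripts, the 3′ signal minus the 5′ signal had a median of 2.41 to 2.70 on arrays numbered 1 and of −0.01 to 0.35 on arrays numbered 2. EGFP-high was therefore compared with EGFP-low within each line and number, and differences between lines are also given at each number. Of 7 lung epithelial markers, 5 (Nkx2-1, Sftpc, Sftpa1, Scgb1a1 and Foxj1) did not pass the filter of a log2 signal above 5 on at least 2 arrays, and of 9 intestinal markers, 7 (Cdx1, Vil1, Lgals4, Muc2, Slc26a3, Cdh17 and Tff3) did not. The keratin Krt8 averaged 12.67 in LLC EGFP-high and 12.40 in LLC EGFP-low cells, and the intestinal keratin Krt20 averaged 12.04 in colon26 EGFP-high and 11.75 in colon26 EGFP-low cells.

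The probe set with the highest mean stood for each gene, and 9 of the 10 genes passed the filter. Cdh1 did not. Its 1 probe set read 2.95 on both LLC EGFP-high arrays, 3.03 and 2.83 in LLC EGFP-low, 3.65 and 3.39 in colon26 EGFP-high, and 3.88 and 3.26 in colon26 EGFP-low. On every array this lay within the lowest 16.7% of all probe sets, so E-cadherin was near the bottom of the scale in both lines and both sorts. Fitted without the filter, LLC minus colon26 was −0.57 in high and −0.65 in low cells (limma adjusted p = 0.19 and 0.12). Ocln passed through its LLC arrays and Cdh2 through its colon26 arrays, so a difference between the lines was built into their passing, and the counts below cannot be read as those of all members.

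**Figure D1:**
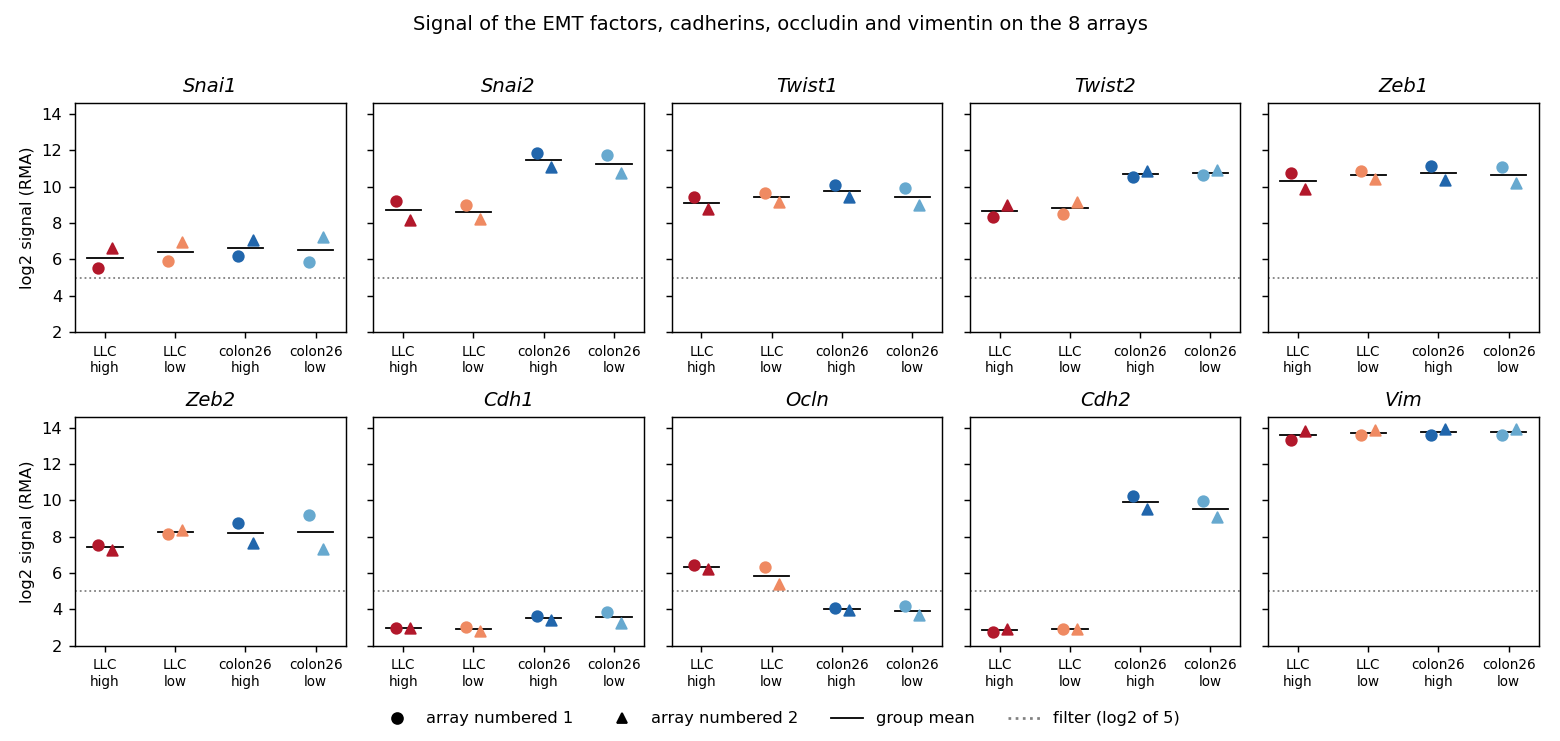
Log2 signal of each gene's probe set with the highest mean on the 8 arrays, by group, with circles for number 1, triangles for number 2 and a line at the group mean. Cdh2 lies above 9 on all colon26 arrays and below 3 on all LLC arrays, Ocln lies above 5 on LLC arrays alone, and Cdh1 stays under 4 throughout.

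N-cadherin, Snai2 and Twist2 were lower in LLC than in colon26 and occludin was higher, in EGFP-high and in EGFP-low cells alike. Snai1, Twist1, Zeb1, Zeb2 and Vim did not pass the test in either sort. With the replicate number shared by the lines as a block, Snai1 (−0.53, limma adjusted p = 0.0484) and Twist1 (−0.68, limma adjusted p = 0.016) passed as well in EGFP-high cells. That fit called 39.2% of all genes. Of the 9 members tested, 3 were lower and 1 higher in each sort (limma with 4 group means, Benjamini-Hochberg over 12177 genes), where 4.33% of all genes were called higher and 7.01% lower in LLC EGFP-high cells, and 5.81% higher and 8.19% lower in LLC EGFP-low cells. Leaving out any 1 number of either line ended the calls of Snai2, Twist2 and Ocln in both sorts, and Cdh2 alone was still called. This test treats the 8 arrays as independent, but high and low arrays of a number deviated together (r = 0.89 in LLC and 0.84 in colon26). The 2 sorts are therefore not separate evidence for a line difference. With only a sort's own arrays, Ocln and Cdh2 were called in high cells (861 of 12177 genes called). In low cells Cdh2 alone was called (662 of 12177). These are bulk arrays, in which fewer cells of a type and less RNA per cell cannot be told apart.

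Cdh2 read 2.76 and 2.94 in LLC EGFP-high cells, against 10.25 and 9.54 in colon26 EGFP-high cells. In the low sort it read 2.90 on both LLC arrays, against 9.97 and 9.10 on the colon26 arrays. Every LLC value lay within the lowest 3.05% of its array, and the groups were far from overlapping. LLC minus colon26 was −7.04 in high cells (SE 0.38, limma adjusted p = 1.75e-04) and −6.64 in low cells (SE 0.38, limma adjusted p = 2.31e-04). The LLC values sit at the bottom of the scale, which bounds the size of the difference. A second Cdh2 probe set read 3.39 and 3.56 in LLC EGFP-high and 8.92 and 9.31 in colon26 EGFP-high cells, and 3.31 and 3.51 in LLC EGFP-low and 8.62 and 8.98 in colon26 EGFP-low cells. Its differences at the same number ran from −5.76 to −5.31.

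Snai2 (Slug), a zinc finger repressor of the Snail family, read 9.22 and 8.19 in LLC EGFP-high cells, against 11.85 and 11.09 in colon26 EGFP-high cells. In low cells it read 8.98 and 8.24 in LLC, against 11.77 and 10.74 in colon26. All 4 LLC values lay below all 4 colon26 values. The difference was −2.77 in high cells (SE 0.54, limma adjusted p = 0.023) and −2.65 in low cells (SE 0.54, limma adjusted p = 0.026). This probe set has the suffix x_at, which Affymetrix gives to sets whose probes can also match other transcripts. The gene's other probe set, without that suffix, read 5.52 on both LLC EGFP-high arrays, against 8.09 and 7.52 in colon26 EGFP-high cells, and 5.40 and 5.44 in LLC EGFP-low, against 7.92 and 7.05 in colon26 EGFP-low cells. Fitted with every probe set as its own unit, that set passed as well (limma adjusted p = 0.015 in high and 0.021 in low cells).

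Twist2, a basic helix-loop-helix factor of mesenchymal cells, read 8.35 and 9.01 in LLC EGFP-high cells, against 10.52 and 10.86 in colon26 EGFP-high cells. In low cells it read 8.49 and 9.16 in LLC, against 10.63 and 10.92 in colon26. Again no LLC value reached the lowest colon26 value. The difference was −2.01 in high cells (SE 0.35, limma adjusted p = 0.016) and −1.95 in low cells (SE 0.35, limma adjusted p = 0.017). Its relative Twist1 was much closer between the lines, at 9.45 and 8.76 in LLC EGFP-high and 10.11 and 9.47 in colon26 EGFP-high cells, and at 9.68 and 9.17 in LLC EGFP-low and 9.91 and 9.0 in colon26 EGFP-low cells. The lines overlapped in low cells, and in high cells the upper LLC value lay just under the lower colon26 value (LLC minus colon26 −0.68 in high and −0.03 in low cells, limma adjusted p = 0.42 and 0.98, and in high cells 0.016 with the shared number as a block). Whether the line difference of Twist2 was larger than that of Twist1 was not tested.

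Ocln ran the other way. It read 6.42 and 6.25 in LLC EGFP-high cells, against 4.07 and 3.98 in colon26 EGFP-high cells, and 6.32 and 5.41 in LLC EGFP-low cells, against 4.17 and 3.68 in colon26 EGFP-low cells. The colon26 values lay within the lowest 28.5% of their arrays and below every LLC value. The difference was 2.31 in high cells (SE 0.36, limma adjusted p = 0.0092) and 1.94 in low cells (SE 0.36, limma adjusted p = 0.018). A second Ocln probe set was nearer to background, at 5.21 and 5.10 in LLC EGFP-high and 4.27 and 4.21 in colon26 EGFP-high cells, and at 4.78 and 4.85 in LLC EGFP-low and 3.80 and 4.32 in colon26 EGFP-low cells. It was higher in LLC at both numbers in both sorts, by 0.53 to 0.97, and as a unit of its own did not pass (limma adjusted p = 0.095 in high and 0.13 in low cells).

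**Figure D2:**
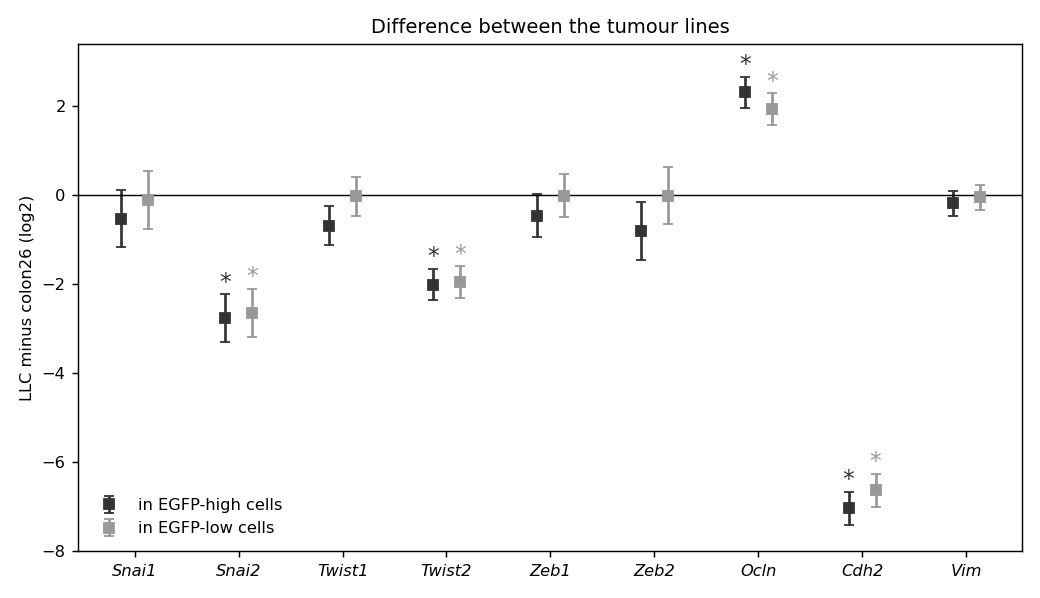
LLC minus colon26 in log2 units with its standard error for the 9 genes tested, in EGFP-high (dark) and EGFP-low (light) cells, from limma with 4 group means and 2 arrays a group; stars mark an adjusted p under 0.05. Cdh2, Snai2 and Twist2 lie below 0 and Ocln above 0 in both sorts.

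The remaining members did not pass between the lines without that block. Vim stood at percentile 99.8 or higher of all probe sets on every array, at 13.33 and 13.82 in LLC EGFP-high and 13.60 and 13.92 in colon26 EGFP-high cells. It read 13.58 and 13.85 in LLC EGFP-low and 13.60 and 13.92 in colon26 EGFP-low cells, and the values of the lines overlapped in the low sort and in the high sort. LLC minus colon26 for Vim was −0.18 in high cells (95% interval −0.87 to 0.50) and −0.04 in low cells (−0.73 to 0.64). Snai1, the founding Snail repressor, read 5.55 and 6.62 in LLC EGFP-high and 6.17 and 7.06 in colon26 EGFP-high cells. The difference was −0.53 (95% interval −2.09 to 1.03, limma adjusted p = 0.71 without the block and 0.0484 with it). In the low sort it read 5.91 and 6.94 in LLC and 5.86 and 7.21 in colon26 (−0.11, −1.67 to 1.45). Its arrays numbered 2 were higher than those numbered 1 in all 4 groups, by 1.08 on average, more than the lines differed. Zeb1, a zinc finger and homeobox repressor of Cdh1, read 10.76 and 9.86 in LLC EGFP-high and 11.16 and 10.39 in colon26 EGFP-high cells. In low cells it read 10.90 and 10.40 in LLC and 11.12 and 10.21 in colon26. The intervals of its difference were −1.63 to 0.70 in high cells and −1.18 to 1.15 in low cells.

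Zeb2, the other Zeb factor, had a wide spread within colon26. Its probe set with the highest mean read 7.55 and 7.27 in LLC EGFP-high and 8.75 and 7.68 in colon26 EGFP-high cells, and 8.17 and 8.36 in LLC EGFP-low and 9.22 and 7.34 in colon26 EGFP-low cells. The fitted difference between lines was −0.80 in high cells (95% interval −2.36 to 0.75) and −0.01 in low cells (−1.57 to 1.55). The gene has 5 probe sets that disagree: the one with the second highest mean was lower in LLC at both numbers and in both sorts, with differences of −1.69 to −0.66, whereas the one with the highest mean differed by 1.02 at number 2 of the low sort. As a unit of its own the set with the second highest mean had limma adjusted p = 0.080 in high and 0.13 in low cells. Of the 4 Zeb1 sets, the one with the second highest mean likewise differed by −1.02 to −0.47 throughout (limma adjusted p = 0.072 in high and 0.12 in low cells), and another was never above a log2 signal of 5.

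**Figure D3:**
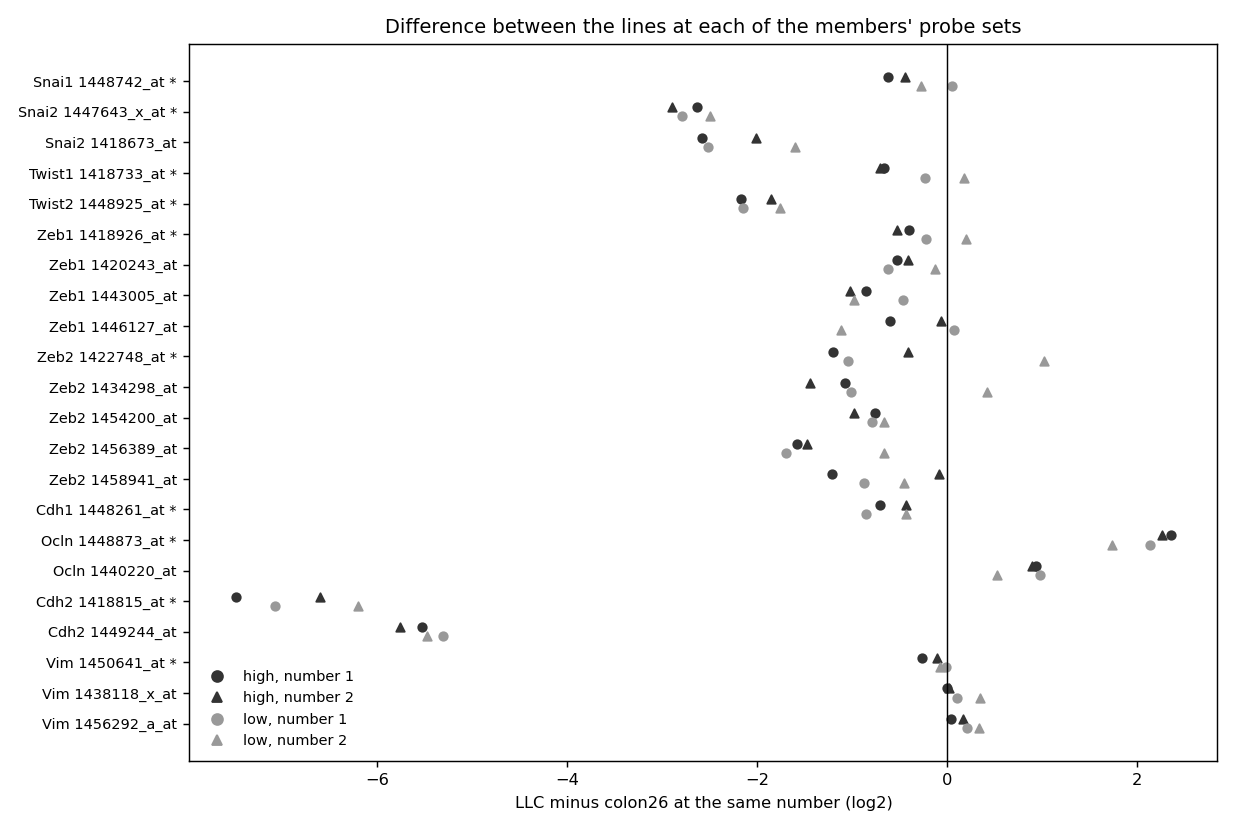
LLC minus colon26 at the same number, in log2 units, for each of the 22 probe sets of the 10 genes, with dark points for EGFP-high and light points for EGFP-low cells and circles and triangles for numbers 1 and 2; an asterisk marks the set that stood for its gene. Both Cdh2 sets and both Snai2 sets lie below 0 and both Ocln sets above 0 at every number and sort, while 2 of the 5 Zeb2 sets have a point above 0.

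With the replicate number as a block shared by the lines, the differences keep their size and their spread is smaller. In high cells 6 members then passed, Snai1 and Twist1 among them, against 39.2% of all genes. In low cells the same 4 passed, against 46.2% of all genes. The test that takes the mean of the high and low array of each pair, and so counts 2 values a line, left Cdh2 (−6.84, limma adjusted p = 0.0065) and Ocln (2.12, limma adjusted p = 0.037). There 2.71% of all genes were called higher and 3.96% lower, and Snai2 and Twist2 had limma adjusted p = 0.060 and 0.054. With the number as a block that test passed all 4 (50.0% of all genes). At the same number, LLC minus colon26 ran from −7.49 to −6.20 for Cdh2, from −2.90 to −2.50 for Snai2, from −2.17 to −1.76 for Twist2 and from 1.74 to 2.36 for Ocln.

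Within each line, EGFP-high cells were set against EGFP-low cells, that is, cells with high against low activity of the PSF1 promoter. In LLC 1 of the 9 members tested, Zeb2, fell and 0 rose, where 4.98% of all genes rose and 6.04% fell. In colon26, 0 members were called by limma with the pair as a block, where 2.18% of all genes rose and 1.58% fell, and 0 had an unadjusted p under 0.05. Over both lines limma called 0 (of all genes 7.47% rose and 5.57% fell), and 1, Zeb2, had an unadjusted p under 0.05 (−0.46, limma adjusted p = 0.091). The difference between the changes of the lines gave 0 calls among the members in limma (of all genes 0.427% were higher and 0.985% lower), with 2, Twist1 and Zeb2, at an unadjusted p under 0.05. The median change of the 9 members was −0.14 in LLC and 0.10 in colon26, beside 0.04 and 0.08 over all genes tested.

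In LLC, Zeb2 was lower in high than in low cells in both pairs, with differences of −0.63 and −1.09, and the arrays of the sorts did not overlap (change −0.86, SE 0.23, limma adjusted p = 0.037). In colon26 its pairs gave −0.47 and 0.34. The LLC call rests on the probe set with the highest mean: the next one gave −0.07 and −0.82 in the pairs, and none of the other 4 passed as a unit of its own (limma adjusted p = 0.26 to 0.86). The call ended in 10 of 14 other settings, among them leaving out any 1 number of either line (changes −1.09 to −0.63, adjusted p = 0.059 to 0.66), quantile normalization (−0.82, adjusted p = 0.058), the mean of all 5 probe sets (−0.34, adjusted p = 0.27) and the fit without the replicate block (−0.86, adjusted p = 1). Zeb2 is also expressed by macrophages and fibroblasts. In the same comparison 8 of 10 macrophage markers and 9 of 11 fibroblast markers fell, where 6.04% of all genes fell. The markers C1qa, Fcgr3, Thy1 and Fap, named after their values were seen, would not have passed the filter on EGFP-high arrays alone. A fall was thus favoured by their passing, and these counts cannot be read as those of the whole lists. The mean log2 signal of the macrophage list was 5.60 and 5.78 in LLC EGFP-high against 6.86 and 7.08 in LLC EGFP-low cells, and 6.05 and 5.91 in colon26 EGFP-high against 8.58 and 8.25 in colon26 EGFP-low cells. Their part in the fall of Zeb2 was not tested.

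The other members did not pass between the sorts and are given as the high minus low difference with its 95% interval. In LLC it was −0.34 for Snai1 (−0.76 to 0.08), −0.33 for Twist1 (−0.73 to 0.08) and −0.34 for Zeb1 (−0.75 to 0.08), each below 0 in both pairs. For Ocln it was 0.47 in LLC (−0.01 to 0.96), with pairs at 0.11 and 0.84, and 0.10 in colon26 (−0.39 to 0.58). For Cdh2 it was −0.05 in LLC (−0.44 to 0.35), where the signal is at the bottom of the scale, and 0.36 in colon26 (−0.04 to 0.75), with pairs at 0.28 and 0.44. In colon26 it was 0.33 for Twist1 (−0.07 to 0.73), 0.08 for Snai1 (−0.34 to 0.50) and 0.11 for Zeb1 (−0.30 to 0.53). Vim gave −0.14 in LLC (−0.53 to 0.26) and 0.00 in colon26 (−0.40 to 0.39). Snai2 gave 0.10 in LLC (−0.32 to 0.51) and 0.21 in colon26 (−0.20 to 0.63), and Twist2 gave −0.14 (−0.53 to 0.24) and −0.09 (−0.48 to 0.30). Twist1 was lower in high cells in both LLC pairs and higher in both colon26 pairs, and the test of that difference did not pass (−0.66, limma adjusted p = 0.29).

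**Figure D4:**
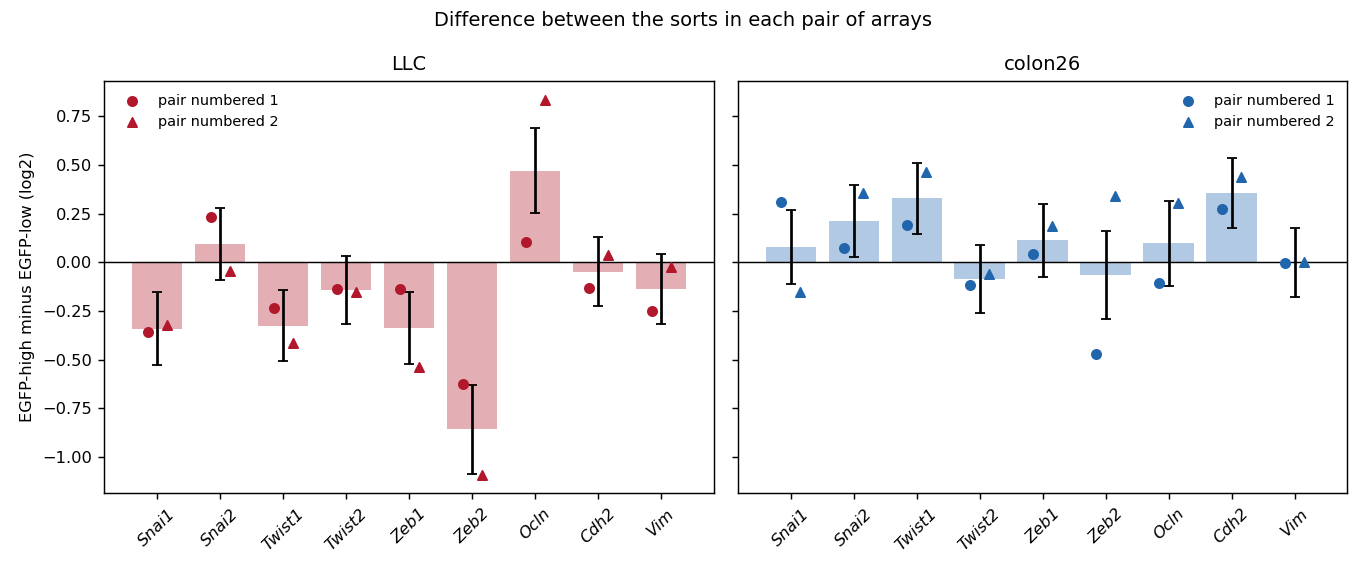
EGFP-high minus EGFP-low in log2 units for the 9 genes tested, in LLC (left) and colon26 (right), with bars and error bars for the paired limma estimate and its standard error and points for the pairs numbered 1 and 2. Zeb2 in LLC is at −0.63 and −1.09, and no bar in colon26 exceeds 0.36.

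The list counts that follow stand beside shares of all genes tested: 4.98% rose and 6.04% fell in LLC, and 2.18% rose and 1.58% fell in colon26. Among genes that surround these in EMT, of 19 mesenchymal products tested, 11 fell and 0 rose in LLC EGFP-high cells (median −1.05, all genes 0.04). Among them were fibronectin Fn1 (−2.81), the metalloproteases Mmp3 (−2.97) and Mmp2 (−2.04) and the matrix glycoprotein Tnc (−2.42). In colon26 3 of 19 fell (median −0.35, all genes 0.08): the collagen cross-linker Lox (−2.48), Cdh11 (−2.44) and Mmp2 (−0.77). Lox and Cdh11 passed the filter through EGFP-low arrays alone, so a fall was built into their passing. Of 12 EMT regulators outside the members, 5 fell in LLC, including Id3 (−1.64), an inhibitor of helix-loop-helix factors, and the homeobox factor Prrx1 (−1.34), and Lox alone fell in colon26. Of 13 genes of TGF-beta input, 5 fell in LLC, among them Tgfbr3 (−1.02), Tgfb3 (−0.95) and Skil (−0.88), and in colon26 limma called 0, with 1 at an unadjusted p under 0.05. Of 14 epithelial regulators and adhesion genes, limma called 0 in LLC, with 1 at an unadjusted p under 0.05, and F11r, a tight junction adhesion molecule, fell in colon26 (−0.94). Of 8 catenins and cadherin partners limma called 0 in either line, also at an unadjusted p under 0.05; beta-catenin Ctnnb1 averaged 12.81 and alpha-catenin Ctnna1 11.98 over the 8 arrays. Fibroblast markers were also lower in EGFP-high cells. Their mean log2 signal was 7.26 and 7.52 in LLC EGFP-high against 9.57 and 9.82 in LLC EGFP-low cells. It was 9.04 and 9.23 in colon26 EGFP-high against 10.73 and 9.82 in colon26 EGFP-low cells. Several genes, such as the collagen Col1a2, stand in both the mesenchymal and the fibroblast list, and the part of fibroblasts in the falls was not tested.

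Between the lines, 4.33% of all genes were higher and 7.01% lower in LLC EGFP-high cells, and 5.81% higher and 8.19% lower in LLC EGFP-low cells. Of 19 mesenchymal products, 8 were lower and 0 higher in LLC EGFP-high cells (median −0.999, all genes −0.09). In LLC EGFP-low cells 8 were lower and 1 higher (−1.34, all genes −0.07). Tnc averaged 4.16 in LLC EGFP-high and 13.60 in colon26 EGFP-high cells, and Mmp2 averaged 4.90 in LLC EGFP-high and 11.41 in colon26 EGFP-high cells. Fibroblast markers were also lower in part, with 4 of 11 called lower in high cells, and 3 lower and 1 higher in low cells. Their part in the differences was not tested. Of 6 other cadherins tested, 2 were lower in LLC EGFP-high cells, 3 were lower in LLC EGFP-low cells and 0 were higher. Cdh13 (T-cadherin), which is anchored in the membrane without a cytoplasmic tail, was lower in LLC (−5.52 in high and −5.64 in low cells, limma adjusted p = 0.0016 in each), and so was Cdh6 (−1.18 and −1.04). Cdh5, the cadherin of endothelial cells, was lower in low cells (−1.65, limma adjusted p = 0.013), and its −0.82 in high cells was not called. The nectin Nectin2 was the 1 of 8 cadherin partners called, at −1.98 and −2.17. Cdh5, Cdh6 and Nectin2 were below the filter on every LLC array and passed through their colon26 arrays. A difference between the lines was thus built into their passing, and these counts cannot be read as those of the whole lists. Of 14 epithelial genes tested, Krt8 (7.31 and 6.74) and its partner keratin Krt18 (5.08 and 4.06) were higher in LLC and 0 were lower. Among the colon26 arrays Krt18 was above the filter only on EGFP-low number 2 (5.05), so it would not have passed without its LLC arrays. The median of the 14 was 0.02 in high and −0.42 in low cells (all genes −0.09 and −0.07). A further 16 epithelial genes of that list did not pass the filter, among them the splicing factors Esrp1 and Esrp2 and the tight junction gene Cldn7, named after their values were seen.

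**Figure D5:**
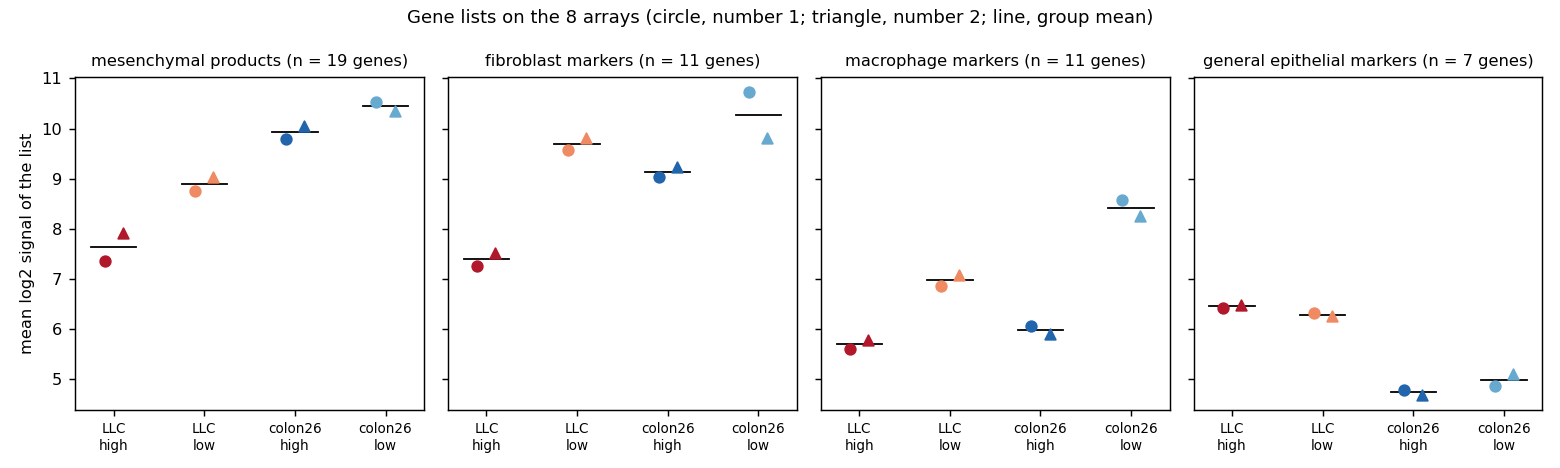
Mean log2 signal over the genes of 4 lists on each array, by group, with circles for number 1, triangles for number 2 and a line at the group mean. Mesenchymal, fibroblast and macrophage lists are lower in EGFP-high than in EGFP-low cells of the same line. The mean of the general epithelial markers, of which Krt8 and Krt18 were called, is higher in LLC than in colon26. This does not hold for every gene of that list. Krt7, Krt19 and Cldn7, below the filter and named after their values were seen, read lower on every LLC array than on any colon26 array. Cldn4 is lower in LLC by group mean in both sorts.

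The genes with the most similar profiles over the 8 arrays were named by Pearson correlation, which here describes arrays that share lines and replicate numbers. Cdh2 was closest to Lhx8, AI506816 and Nipal1 (r = 0.999 each), and 1151 genes had r above 0.9 with it. Its values form a high and a low set by line. Snai2 was closest to Palld, an actin-binding protein, and to Slc35d1 and Cnksr3 (r = 0.997, 0.996 and 0.995). Twist2 was closest to the matricellular Ccn1, 5730409E04Rik and the protease inhibitor Timp1 (r = 0.998, 0.996 and 0.995), and Ocln to Nxpe3, Spsb4 and Usp54 (r = 0.995, 0.994 and 0.991). Among the members, Twist2 and Ocln ran opposite to each other (r = −0.98), Snai2 and Cdh2 ran together (r = 0.96), and so did Twist1 and Zeb1 (r = 0.96). Snai1 and Vim were also alike (r = 0.96). For the pairs Twist1 with Zeb1 and Snai1 with Vim, the difference between the numbers was larger than that between the lines over both sorts: number 1 minus number 2 averaged 0.69 for Twist1 and 0.77 for Zeb1, and −1.08 for Snai1 and −0.35 for Vim. Zeb1 was closest to Ubr3 (r = 0.990), Twist1 to Rapgef2 (r = 0.993), Snai1 to Uap1l1 (r = 0.992), Vim to Cyhr1 (r = 0.992) and Zeb2 to Snap23 (r = 0.969), for which 17 genes exceeded 0.9.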

How the data were processed

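RNA from FACS-sorted tumour cells was measured on 8 Affymetrix mouse arrays. The values are deposited log2 signals, which the authors made by RMA, per the submitters' processing notes. The RMA software, its version and settings, and whether all 8 arrays were processed jointly were not given in the sources used here. Of 45101 probe sets, the platform annotation gave 34945 a single gene symbol, 932 several and 9160 none, and 64 were controls. For each gene the probe set of highest mean signal was kept, and the 12177 of 18193 named genes with a log2 value above 5 on at least 2 arrays were tested.

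The limma package (3.58.1, R 4.3.3) gave each difference, with Benjamini-Hochberg adjustment over all genes tested and a threshold of 0.05. EGFP-high minus EGFP-low used all 8 arrays with the pair (line and number) as a block, LLC minus colon26 within a sort used 4 group means, and the difference over both sorts used pair means. The titles give the replicate numbers. Arrays of the same number deviated together from their group means within LLC (r = 0.89) and colon26 (r = 0.84), and across the lines in the high (r = 0.84) and low (r = 0.74) sort.

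The members, the gene lists and the tests were chosen with earlier results of these data known. Named genes are the members, the 3 genes closest to each over the 8 arrays, from each list up to 4 called genes in order of p (in lists with no call, the 2 of highest mean), and Gins1. Alternatives were the filter, scaling, moderation, treatment of probe sets, blocks, subsets of arrays and leaving out each number of a line. The tests were also run on data simulated from the fitted models with independent noise on every array. Because arrays of a number deviated together, that check does not give the error rate of the tests between lines. Promoter windows came from RefSeq (GRCm38.p6), in which 6 of the 10 members had one. With 2 arrays a group, their number limits the precision.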

Additional observations from a re-analysis of the deposited data

Results flagged for a closer look

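For 15 genes of the lists, and for 0 of the 9 members tested, the EGFP-high minus EGFP-low change differed between the lines by limma's test of that difference, with an adjusted p under 0.05 over all genes. Each value is the change in LLC minus the change in colon26, in log2 units. Of 19 mesenchymal products 6, and of 11 fibroblast markers 4, fell further in LLC by this test, where 0.985% of all genes had a lower difference. The others of these lists were not called, and among them Lox and Cdh11 fell more in colon26. The difference was −3.06 for Col1a2 (−3.40 in LLC and −0.35 in colon26), −3.03 for Dcn (−3.39 and −0.36) and −2.49 for Fn1 (−2.81 and −0.32). It was −2.43 for Mmp3 (−2.97 and −0.53) and −2.26 for Tnc (−2.42 and −0.16). It was −1.42 for Col1a1, −1.28 for Mmp2 and −1.53 for the fibroblast and pericyte receptor Pdgfrb. Among EMT regulators it was −1.59 for Id3 (−1.64 in LLC and −0.05 in colon26) and −1.27 for Prrx1 (−1.34 and −0.07). Of 10 macrophage markers, 4 fell further in colon26, where 0.427% of all genes had a higher difference. The difference was 2.48 for Lyz2 (−2.16 in LLC and −4.64 in colon26), 1.89 for Ctss (−2.57 and −4.46), 1.69 for Fcgr3 (−1.65 and −3.34) and 1.42 for Csf1r (−1.61 and −3.03). It was 1.71 for the endothelial gene Emcn (−0.23 in LLC and −1.94 in colon26). Over all genes 172 differed in this way, and 4 did under quantile normalization. The part of each cell type in these differences was not tested. The lowest colon26 value was 13.17 for Col1a2, 13.07 for Dcn, 13.46 for Fn1 and 13.47 for Tnc, near the top of the scale. Whether this limited their falls in colon26 was not tested. Emcn was above the filter on its colon26 EGFP-low arrays alone, so a larger fall in colon26 was built into its passing.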

How the results depend on the processing

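No value changed sign where a member was called, as reported or under the alternative. The 1 member called in LLC between the sorts, Zeb2, became 0 without a filter, with quantile normalization, with the mean of all probe sets, with only that line's arrays and with any 1 number left out (0 in each); without the replicate block 0 members were called, and 0 with the number shared by the lines as a block. Over both lines the count became 1, Zeb2, with a filter of 7. Between the lines, leaving out 1 number left 1 member, Cdh2, of 4 in each sort; with only the arrays of a sort, 2 were called in EGFP-high and 1 in EGFP-low cells. Over both sorts the 2 calls became 1 with a filter of 7, which Ocln does not pass, 1 with every probe set tested, 4 with a mean-variance trend and robust moderation, 0 to 1 with a number left out, and 4 with the replicate number as a block. That block raised the calls in EGFP-high cells to 6. Over both sorts the mean of all probe sets gave 1 member higher, Ocln, and 2 lower, Snai2 and Cdh2. With the pair as a random block (correlation 0.77) 4 were called in each sort. The cause of these changes in the counts was not tested.

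Over all genes, LLC EGFP-high minus EGFP-low gave 1342 calls, 2052 over every probe set, 396 to 943 with a number left out, 802 with the shared number as a block and 0 without a block. For colon26 459 became 152 with quantile normalization, 771 with median centring, 59 to 552 with a number left out, 204 with the shared number and 3 without a block; over both lines 1588 became 509 to 1109, 1052 and 7. The 172 differing changes became 56 without a filter, 272 with a filter of 7, 374 with centring, 320 with the trend, 0 to 175 with a number left out, 12 with the shared number and 0 without a block. Between the lines 1380 calls in EGFP-high cells became 406 to 663 and 861 with that sort's arrays. In EGFP-low cells 1705 became 3240 without a filter, 955 with a filter of 7, 359 to 874 with a number left out and 662 with that sort's arrays; over both sorts 812 became 0 to 174. The colon26 calls, 266 higher and 193 lower, became 43 and 109 with quantile normalization and 539 and 232 with centring. LLC minus colon26 in EGFP-low cells, 708 higher and 997 lower, became 872 and 724 with centring, and the differing changes, 52 and 120, became 2 and 2 with quantile normalization. Centring moved the median of all genes between the lines by over 0.1, to 0.03 in EGFP-high, 0.12 in EGFP-low and 0.08 over both sorts, against −0.09, −0.07 and −0.08, and quantile normalization moved that of the differing changes to 0.08, against −0.04. Cdh1 and the LLC levels of Cdh2 lay near the bottom of the scale, where signal over background limits any difference.

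Of 839 member values under the alternatives, 49 changed sign, and 0 of these were called in either fit. With quantile normalization EGFP-high minus EGFP-low became −0.034 for Snai1 and −0.018 for Zeb1 in colon26 and −0.067 for Twist1 over both lines, and the difference between the lines' changes became 0.029 for Snai2 and 0.11 for Twist2. With median centring it became 0.015 for Zeb2 and 0.080 for Vim in colon26. Centring also turned LLC minus colon26 in EGFP-low cells to 0.074 for Snai1, 0.16 for Twist1, 0.17 for Zeb1, 0.17 for Zeb2 and 0.14 for Vim, and that of Vim over both sorts to 0.034. With the mean of all probe sets, EGFP-high minus EGFP-low became 0.0071 for Cdh2 in LLC, and −0.043 for Zeb1, 0.10 for Zeb2 and 0.052 for Vim in colon26, and LLC minus colon26 for Vim became 0.15 in low cells and 0.065 over both sorts. With a number left out, EGFP-high minus EGFP-low ran in LLC from −0.044 to 0.24 for Snai2 and from −0.13 to 0.035 for Cdh2. In colon26 it ran from −0.15 to 0.31 for Snai1, −0.47 to 0.34 for Zeb2, −0.11 to 0.31 for Ocln and −0.0038 to 0.0011 for Vim. It ran from −0.067 to 0.069 for Twist1 over both lines, and the difference between the changes from −0.26 to 0.023 for Snai2. LLC minus colon26 then ran in EGFP-high cells from −1.06 to 0.0061 for Snai1 and −0.43 to 0.063 for Vim. In EGFP-low cells it ran from −0.78 to 0.56 for Snai1, −0.48 to 0.43 for Twist1, −0.47 to 0.44 for Zeb1, −0.95 to 0.93 for Zeb2 and −0.21 to 0.12 for Vim. Over both sorts it ran from −0.88 to 0.24 for Snai1, −0.74 to 0.033 for Twist1, −0.66 to 0.18 for Zeb1, −1.14 to 0.33 for Zeb2 and −0.30 to 0.075 for Vim.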

Other observations

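Proliferation genes moved the opposite way from the mesenchymal list between the sorts. Of 7 tested, 6 rose in LLC EGFP-high cells, where 4.98% of all genes rose (median 1.62, all genes 0.04). In colon26 EGFP-high cells 5 rose, where 2.18% of all genes rose (median 1.47, all genes 0.08). Between the lines limma called 0 of 7 in either sort, with 2 at an unadjusted p under 0.05 in EGFP-high and 0 in EGFP-low cells.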
